A study of Mus musculus with 6 samples.

Results

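The 41 genes described here encode proteins of the lysosome, of autophagy and of mTORC1, the growth-controlling kinase complex that is switched on at the lysosomal surface. They were chosen as a list of symbols around the compartment and kinase complex of TMEM127, the protein deleted in the mice, and all 41 are among the 30406 genes listed for every library. By role they are 10 lysosomal hydrolases, 4 lysosomal membrane proteins, 5 subunits of the vacuolar proton pump (V-ATPase), 5 autophagy genes, 6 genes of the Rag GTPases and folliculin, 3 MiT/TFE transcription factors, 5 Ragulator subunits and 3 genes of the mTORC1 core. A second list of 123 genes of the same pathways serves only for counts.

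The study compared adrenal glands of Tmem127 knockout (KO) mice with those of wild type (WT) mice. Tmem127 encodes a transmembrane protein of endosomes and lysosomes, and inherited mutations of the human gene predispose to phaeochromocytoma, a tumour of adrenal chromaffin cells. The groups were Tmem127 KO (2 libraries) and Tmem127 WT (3 libraries), in each case female C57BL/6 J mice aged 10 to 11 months that received no labelled treatment. Each library came from 1 pair of frozen whole glands. Their nuclei, selected by DAPI staining of DNA, were sequenced by a droplet 3' method that counts unique molecular identifiers (UMIs), 1 for each captured RNA molecule. A further library is titled WT but carries KO in its genotype field, so it enters no comparison and its values are given as those of an unassigned library. How Tmem127 was deleted, in which cells, and which part of the gene was removed are not given in the labels.

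The files held 21724 barcodes in 6 libraries of 4825169 to 43377724 UMIs, and 21035 nuclei were used after filtering, 2802 to 4476 per library. KO replicate 2 was the shallowest, with a median of 1289 UMIs per barcode against 7675 in the deepest, WT replicate 1. Pairs of libraries shared 2 to 8 barcodes. The 23 clusters were named from marker genes that exclude all 41 members, and 12 classes had at least 20 nuclei in each of the 5 KO and WT libraries. A pair of classes kept only a number: cluster 12, led by the inner cortex genes Cyp2f2 and Akr1d1, and cluster 16, which passed 9 of 11 chromaffin markers but was led partly by the neuronal gene Elavl4. The zona glomerulosa-like class joined cluster 0 (2082 nuclei, with Vsnl1, Agtr1b and Cyp11b2 among its leading genes) and cluster 1 (2657 nuclei). Cluster 1 passed 8 of 13 zona glomerulosa markers but had 0 of them among its leading genes, which included Oca2, Mpped2 and Tnc. Values of this class are those of both clusters together. KO replicate 1 also held 47 of the 51 hepatocyte-like nuclei, which enter the sums over all nuclei. Tmem127 itself was not lower in KO, at 45.9 and 45.0 CPM (counts per 1000000) over all nuclei in KO against 38.0, 38.2 and 36.1 CPM in WT, and since the removed part is unknown this level checks no label.

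Lysosomes are acidified by the V-ATPase, degrade proteins, glycans and lipids with their hydrolases, and receive the cargo of autophagosomes. Amino acids load the Rag GTPases, heterodimers of RagA or RagB with RagC or RagD, which the Ragulator complex anchors to the lysosomal membrane and which bring mTORC1 to its activator Rheb. Folliculin, bound to FNIP1 or FNIP2, stimulates GTP hydrolysis by RagC and RagD. Active mTORC1 phosphorylates TFEB, TFE3 and MITF and keeps them out of the nucleus, and when they enter it they bind E-box sequences in the promoters of many lysosomal genes.

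That E-box, CACGTG, was common in the members' promoters. RefSeq promoter sequences on GRCm38.p6 (250 bases before to 50 after the start site) were matched for 37 members, and 15 of them (40.5%) held CACGTG, against 8.09% of 27025 genes and 8.91% of 17492 coding genes. The hexamer reads the same on both strands. By role it was found in 6 of 9 hydrolases, 2 of 4 membrane proteins and 2 of 3 V-ATPase subunits, and in 0 of 5 autophagy genes. Among the mTORC1-linked members it was found in Fnip1, Rragc, Lamtor1, Lamtor4 and Rheb. The longer palindrome TCACGTGA, which contains the hexamer, stood in 5 members (13.5%), against 1.12% of genes. The other pathway genes lay lower, with CACGTG in 15 of 93 matched genes (16.1%). These are letter matches in a fixed window and show no binding. The members were chosen as lysosomal, autophagy and mTORC1 genes, and whether the motif played a part in that choice is not known. Their share therefore describes the list and tests nothing. Lamp1 is shown for its 4 copies, Ctsa, Mcoln1, Atp6v0d1 and Atp6v1a for the longer palindrome, Lamtor4 and Rragc as members of the kinase's lysosomal anchor and Rheb as its activator; the capitals mark the motif. The stretches are Lamp1 chr8:13159083-13159168 (+), Ctsa chr2:164833744-164833800 (+), Mcoln1 chr8:3500431-3500496 (+), Atp6v0d1 chr8:105566045-105566084 (-), Atp6v1a chr16:44139368-44139407 (-), Lamtor4 chr5:138255345-138255400 (+), Rragc chr4:123917304-123917343 (+) and Rheb chr5:24842435-24842474 (-).
Lamp1: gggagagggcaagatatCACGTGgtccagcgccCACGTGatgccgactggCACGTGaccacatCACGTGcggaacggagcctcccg
Ctsa: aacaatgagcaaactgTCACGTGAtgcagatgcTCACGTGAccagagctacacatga
Mcoln1: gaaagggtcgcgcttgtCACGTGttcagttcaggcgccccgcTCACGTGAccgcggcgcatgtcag
Atp6v0d1: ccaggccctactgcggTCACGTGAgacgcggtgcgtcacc
Atp6v1a: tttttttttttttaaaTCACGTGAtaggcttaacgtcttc
Lamtor4: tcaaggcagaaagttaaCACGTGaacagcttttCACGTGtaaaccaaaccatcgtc
Rragc: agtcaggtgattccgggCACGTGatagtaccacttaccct
Rheb: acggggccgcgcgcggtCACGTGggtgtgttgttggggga

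The members differed mainly between cell types. Levels are CPM, a gene's UMIs scaled to a common total of the class's UMIs in each library, and are compared between classes within a gene only, because they follow gene length in nuclear RNA (Spearman correlation 0.77 between genomic span, 1.6 to 296.7 kb, and level over the 41 members, as a description). Of them, 15 also overlap another counted gene, and the sources used here do not say whether counting used strand. Clusters were made from the same nuclei, so differences between classes are described without a test. Of the 41 members, 24 had their highest mean in macrophage-like nuclei. Some of these were near ties with the next class, such as Lamtor2 (7.46 against 7.34 CPM in cluster 12) and Fnip1 (406 against 385 CPM in chromaffin-like nuclei). The share of all genes with their highest mean in this class is not given, so the count is a description only. In 8 members every KO and WT library of 1 class lay above every library of the other 11 tested classes, 7 of them in macrophage-like nuclei and 1 in adipocyte-like nuclei. Over all 24452 genes with a UMI, 1.98% stood apart in this way in macrophage-like nuclei, 1.61% in adipocyte-like nuclei and 9.9% in any class. Among the 13587 genes within the members' range of levels it was 3.0% in macrophage-like nuclei and 14.8% in any class. Among the other pathway genes it was 17 of 123 in macrophage-like nuclei, among them the lysosomal protein genes Ctss, Ctsz, Lgmn and Psap. All of the 8 separated members except Mitf overlap another counted gene on the opposite strand, so the unknown use of strand bears on their levels.

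**Figure D1:**
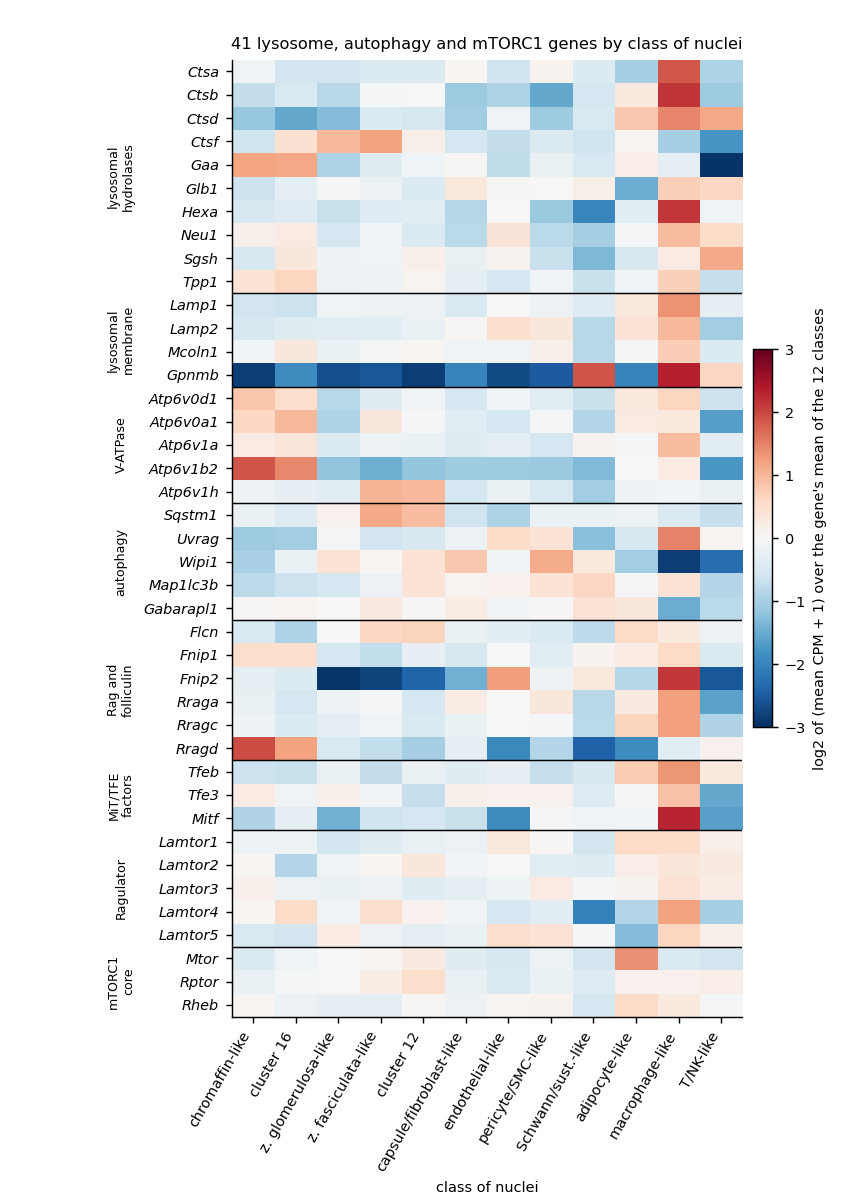
Level of each of the 41 members (rows, grouped by role) in 12 classes of nuclei (columns), as log2 of the mean CPM plus 1 of 5 KO and WT libraries over the gene's own mean across classes; SMC is smooth muscle cell and sust. is sustentacular. The macrophage-like column is the highest for 24 members (23 of 39 without Ctsd and Map1lc3b, whose levels followed the annotation), Atp6v1b2, Rragd and Gaa are highest in chromaffin-like nuclei, and Mtor in adipocyte-like nuclei.

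The 10 hydrolase genes summed to 857 ± 93.6 CPM in macrophage-like nuclei and to 307 ± 41.8 CPM in zona fasciculata-like nuclei, the next class (SD, n = 5). Among them, Ctsb, which encodes the cysteine protease cathepsin B, had 334 and 259 CPM in macrophage-like nuclei of KO and 281, 169 and 295 CPM in those of WT. The next class, adipocyte-like nuclei, reached at most 110 CPM in any library. Part of Ctsb overlaps Fdft1 on the opposite strand, and Fdft1 averaged 17.2 CPM in macrophage-like nuclei. Hexa, the alpha subunit of beta-hexosaminidase, had 266 and 193 CPM in KO and 195, 369 and 220 CPM in WT macrophage-like nuclei, with a highest value of 126 CPM elsewhere, in T or NK-like nuclei of WT replicate 2. Ctsa, which encodes the protective protein cathepsin A, had 91.6 and 88.9 CPM in KO and 86.3, 75.1 and 125 CPM in WT macrophage-like nuclei. The KO and WT libraries overlapped for each of these 3 genes. Other hydrolases had other patterns. Ctsf, a cathepsin gene, was highest in the steroid-making cortex, at 68.0 ± 13.6 CPM in zona fasciculata-like and 57.2 ± 10.9 CPM in zona glomerulosa-like nuclei (SD, n = 5), and these ranges overlapped. Gaa, the acid alpha-glucosidase that degrades glycogen, was highest in chromaffin-like nuclei at 42.8 ± 9.96 CPM, with 41.9 ± 22.5 CPM in cluster 16 and 21.0 ± 4.93 CPM in the next class (SD, n = 5). Tpp1, a tripeptidyl peptidase, reached 41.2 ± 15.5 CPM in macrophage-like nuclei and 39.7 ± 16.9 CPM in cluster 16, which overlap. Glb1, a beta-galactosidase, and Neu1, a sialidase, had their highest class means in macrophage-like nuclei, at 104 and 24.2 CPM, and lowest class means of 21.6 and 5.55 CPM. T or NK-like nuclei came next for both genes, at 96.7 and 18.4 CPM. Their highest libraries, at 157 and 50.2 CPM, lay above the highest macrophage-like libraries, at 119 and 31.3 CPM.

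For 2 members the level followed the gene annotation of the files rather than a class or a genotype. Ctsd, the aspartic protease cathepsin D, had 21.6 and 0.652 CPM over all nuclei in KO replicates 1 and 2 and 20.4, 0.639 and 0.545 CPM in WT replicates 1 to 3. Map1lc3b, a member of the LC3 family of autophagosome proteins, had 16.3 and 0.652 CPM in KO and 14.4, 0.255 and 0.382 CPM in WT. In both genes the high values are those of KO replicate 1 and WT replicate 1, which were counted with Cell Ranger 4.0.0 and its annotation, whereas the other libraries were counted with version 3.1.0. No other member differed more than 10-fold between every library of one annotation and every library of the other, so Ctsd and Map1lc3b can be read only between KO replicate 1 and WT replicate 1. Between these 2 libraries Ctsd had 87.3 CPM in KO and 108 CPM in WT macrophage-like nuclei, and 102 CPM in KO and 53.7 CPM in WT T or NK-like nuclei. Without Ctsd and Map1lc3b, 23 of 39 members had their highest mean in macrophage-like nuclei, and without Ctsd the hydrolase sum was 818 ± 70.5 CPM there and 301 ± 17.5 CPM in cluster 16, the next class (SD, n = 5).

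The lysosomal membrane proteins divided into broad and restricted genes. Lamp1, a heavily glycosylated protein that lines the lysosome, had 113 and 148 CPM in KO and 79.7, 75.1 and 88.0 CPM in WT macrophage-like nuclei, and no library exceeded 66.0 CPM in adipocyte-like nuclei, the next class. Lamp2, its relative that also acts in chaperone-mediated autophagy, was highest in the same class but overlapped others, with means of 82.1 to 333 CPM over the 12 classes. Gpnmb, a glycoprotein of lysosomes and melanosomes, had its highest means in 2 classes. It had 21.3 and 22.2 CPM in KO and 56.8, 0 and 73.3 CPM in WT macrophage-like nuclei, and 18.9 and 31.1 CPM in KO and 22.0, 24.8 and 28.6 CPM in WT Schwann or sustentacular-like nuclei. In chromaffin-like nuclei it had 0 UMIs in every library, where 3 UMIs would correspond to 0.988 to 5.43 CPM. Mcoln1, the lysosomal calcium channel gene, ranged only from 11.4 to 35.8 CPM between class means.

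The V-ATPase members had no single leading class. Summed over the 5 members, chromaffin-like nuclei had 969 ± 161 CPM and cluster 16 had 939 ± 32.1 CPM, against 735 ± 75.2 CPM in macrophage-like, 708 ± 82.7 CPM in zona fasciculata-like and 356 ± 22.4 CPM in zona glomerulosa-like nuclei (SD, n = 5). Atp6v0a1, which encodes a membrane subunit of the pump, had 288 and 253 CPM in KO and 297, 354 and 288 CPM in WT chromaffin-like nuclei. It was higher still in cluster 16, at 365 and 352 CPM in KO and 388, 405 and 391 CPM in WT. Its chromaffin-like values overlapped those of zona fasciculata-like nuclei, which reached 268 CPM. Atp6v0d1, another membrane-sector subunit, averaged 146 ± 40.2 CPM in chromaffin-like and 129 ± 28.1 CPM in macrophage-like nuclei (SD, n = 5), which overlap. Atp6v1b2, a subunit of the ATP-hydrolysing sector, had 168 and 483 CPM in KO and 262, 327 and 315 CPM in WT chromaffin-like nuclei, against at most 118 CPM in macrophage-like nuclei. This gene overlaps Slc18a1, a vesicular monoamine transporter gene on the opposite strand that had 510 to 880 CPM in the same nuclei, so the Atp6v1b2 level in chromaffin-like nuclei is uncertain. Without it the other 4 members summed to 658 ± 57.2 CPM in chromaffin-like nuclei, 710 ± 50.6 CPM in cluster 16, 679 ± 75.4 CPM in zona fasciculata-like, 636 ± 58.3 CPM in macrophage-like and 320 ± 14.7 CPM in zona glomerulosa-like nuclei (SD, n = 5), and of these only the zona glomerulosa-like libraries lay apart from the rest. Atp6v1h, the regulatory H subunit, which overlaps Rgs20 on the opposite strand, had its highest mean in zona fasciculata-like nuclei. It had 263 and 289 CPM in KO and 346, 290 and 396 CPM in WT there. Cluster 12 had 306 ± 63.5 CPM of it, while macrophage-like nuclei, the third in order, had 146 ± 19.8 CPM (SD, n = 5). Atp6v1a, the catalytic subunit, was highest in macrophage-like nuclei at 121 ± 16.6 CPM, against 80.9 ± 15.4 CPM in cluster 16 (SD, n = 5).

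**Figure D2:**
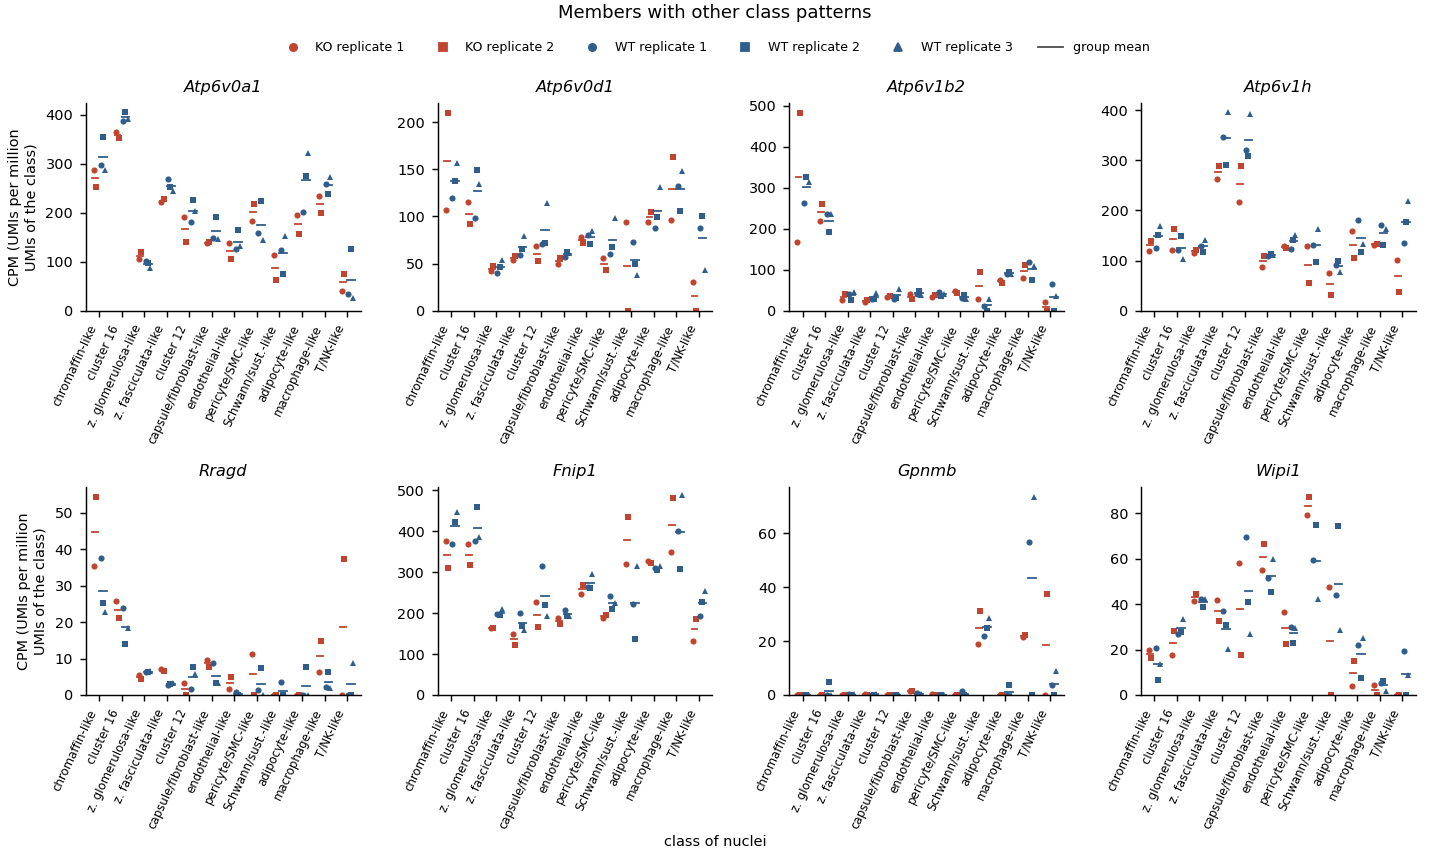
CPM of 8 members (vertical axes, from 0) in each of 12 classes of nuclei (horizontal axes); each point is 1 library, KO in red left of WT in blue, and short lines are group means. Atp6v1b2 and Rragd are high in chromaffin-like nuclei and cluster 16, Atp6v1h in zona fasciculata-like nuclei and cluster 12, and Gpnmb in macrophage-like and Schwann or sustentacular-like nuclei.

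Of the autophagy genes, Uvrag, which encodes a partner of Beclin 1, had 679 and 571 CPM in KO and 839, 545 and 805 CPM in WT macrophage-like nuclei, above the 438 CPM that endothelial-like nuclei reached. B or plasma-like nuclei, too few in some libraries to be compared, had 713 CPM of Uvrag when the 6 libraries were pooled, so that gene is highest in macrophage-like nuclei only among the 12 tested classes. Sqstm1, which encodes the autophagy receptor p62, was highest in zona fasciculata-like nuclei at 189 ± 73.0 CPM and in cluster 12 at 165 ± 53.6 CPM, with 93.5 ± 20.6 CPM in zona glomerulosa-like and 44.6 ± 17.3 CPM in endothelial-like nuclei (SD, n = 5). Wipi1, a phosphoinositide-binding protein of early autophagosomes, averaged 68.4 ± 17.8 CPM in pericyte or smooth muscle-like nuclei and 3.56 ± 2.6 CPM in macrophage-like nuclei (SD, n = 5), where 3 UMIs correspond to 3.28 to 22.2 CPM, so it was near the limit of detection there. Gabarapl1, an LC3 relative, had class means of 3.79 to 17.3 CPM.

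The paralogs Fnip1 and Fnip2 encode the partners of folliculin and differed in their distribution. Fnip2 had 456 and 571 CPM in KO and 391, 388 and 434 CPM in WT macrophage-like nuclei, so that both KO libraries lay above all WT libraries in that class, as for 9.12% of its genes. Endothelial-like nuclei came next, with 240 and 252 CPM in KO and 234, 225 and 274 CPM in WT. Its mean was 12.6 ± 5.08 CPM in zona glomerulosa-like and 14.0 ± 3.93 CPM in zona fasciculata-like nuclei (SD, n = 5). Fnip1 was broad, with class means of 160 to 406 CPM, lowest in zona fasciculata-like nuclei. As a share of the UMIs of both genes, Fnip2 made up 52.6% ± 4.21 in macrophage-like, 47.8% ± 1.19 in endothelial-like and 18.1% ± 1.82 in chromaffin-like nuclei, and 6.19% ± 1.82 in zona glomerulosa-like nuclei (SD, n = 5). The small hepatocyte-like class, nearly all from KO replicate 1, had 665 CPM of Fnip2 in the pooled libraries. Flcn, the folliculin gene itself, was highest in cluster 12, at 60.3 and 59.0 CPM in KO and 52.4, 38.6 and 39.8 CPM in WT, and these values overlapped those of zona fasciculata-like nuclei, which averaged 47.8 ± 8.96 CPM (SD, n = 5).

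Among the Rag genes, Rragd had 35.4 and 54.3 CPM in KO and 37.5, 25.3 and 22.9 CPM in WT chromaffin-like nuclei. Cluster 16 came next at 20.6 ± 4.63 CPM, and zona fasciculata-like nuclei had 4.53 ± 2.16 CPM (SD, n = 5). The chromaffin-like and cluster 16 ranges overlapped, and a single UMI in the T or NK-like nuclei of KO replicate 2, the shallowest library, stood for 37.3 CPM. As a share of the Rragc and Rragd UMIs together, Rragd made up 48.8% ± 13.9 in chromaffin-like nuclei and 12.2% ± 7.48 in zona fasciculata-like nuclei (SD, n = 5). Rragc averaged 94.8 ± 28.5 CPM in macrophage-like nuclei and 63.4 ± 21.3 CPM in adipocyte-like nuclei (SD, n = 5), which overlap. Rraga, the shortest member, averaged at most 6.17 CPM in any class.

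The MiT/TFE gene Mitf (GRCm38 chr6:97807052-98021349, + strand) had 1190 and 1190 CPM in KO and 1040, 1140 and 1420 CPM in WT macrophage-like nuclei, a mean 4.98 times that of pericyte or smooth muscle-like nuclei, where no library exceeded 320 CPM. Tfeb followed the same order less steeply, at 151 ± 22.2 CPM in macrophage-like and 102 ± 17.8 CPM in adipocyte-like nuclei (SD, n = 5), and its libraries overlapped by 1 CPM (126 CPM in the lowest macrophage-like and 127 CPM in the highest adipocyte-like library). Tfe3 averaged 37.9 ± 20.8 CPM in macrophage-like nuclei and 24.2 ± 5.72 CPM in chromaffin-like nuclei (SD, n = 5), which overlap. The 5 Ragulator genes, summed, had class means of 65.8 CPM in Schwann or sustentacular-like to 129 CPM in macrophage-like nuclei.

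The mTORC1 core genes were not highest in macrophage-like nuclei. Mtor, the kinase gene, had 260 and 187 CPM in KO and 280, 278 and 306 CPM in WT adipocyte-like nuclei, against a highest value of 139 CPM in cluster 12, the next class. These nuclei also expressed the adipocyte genes Ucp1 and Cidec. Rptor, the gene of the substrate-binding subunit raptor, was highest in cluster 12, at 387 and 354 CPM in KO and 327, 355 and 357 CPM in WT, followed by zona fasciculata-like nuclei at 291 ± 26.7 CPM (SD, n = 5). The T or NK-like nuclei of KO replicate 2, at 410 CPM, exceeded all of these. Rheb, the GTPase that activates the complex, had 160 and 224 CPM in KO and 174, 145 and 181 CPM in WT adipocyte-like nuclei, and overlapped the 146 ± 25.2 CPM of macrophage-like nuclei (SD, n = 5).

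**Figure D3:**
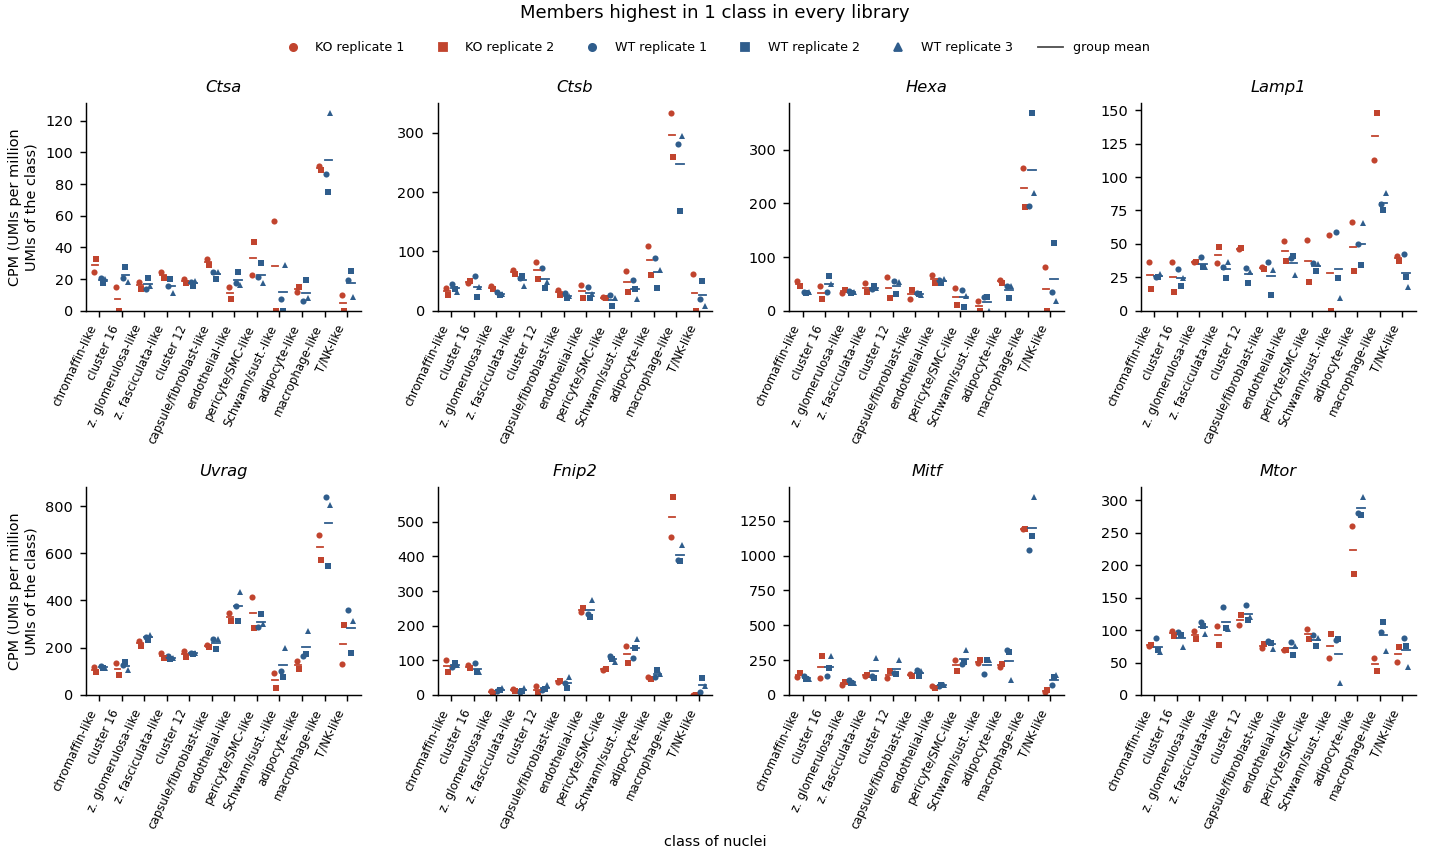
CPM (vertical axes, from 0) of the 8 members whose libraries in 1 class all lay above every library of the other tested classes, by class of nuclei (horizontal axes); points are libraries, KO in red left of WT in blue, and short lines are group means. In 7 members the separate class is macrophage-like, and in Mtor it is adipocyte-like.

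The count of 8 separated members was 8 to 11 when any 1 library was left out. Under this rule leaving out a library can add separated members but cannot lose any, so that range is no check of the 8. With only nuclei of at least 1000 genes the count was again 8, but Ctsb, Lamp1 and Uvrag dropped out and Atp6v0a1, Atp6v1a and Rptor entered.

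KO was then compared with WT within each class, on UMI counts summed per library, with edgeR's quasi-likelihood test over all genes; a gene was called at an adjusted p under 0.05, and each log2 fold is KO over WT. The sums over all nuclei also move with the share of each cell type, so there fewer nuclei of a type and less RNA per nucleus cannot be told apart. No member was called, in the sum over all nuclei (0 of 41 tested) or in any of the 12 classes, and DESeq2 called none either. The share of all genes called by edgeR in all nuclei was 0.0%, and 1161 of 16582 genes (7.0%) had an unadjusted p under 0.05, against 2 of 41 members. In chromaffin-like nuclei 0.0% of 10463 genes were called, with 0 of 37 members; 564 genes (5.39%) and 1 member had an unadjusted p under 0.05. Sgsh, Gpnmb, Map1lc3b and Rraga had too few counts there to be tested. DESeq2 called 57 and 15 genes in these comparisons. With 1 library left out edgeR called 7 to 286 genes over all nuclei, most without KO replicate 2, and 0 to 21 in chromaffin-like nuclei. In zona fasciculata-like nuclei 0.0% of 12436 genes were called by edgeR and 4 by DESeq2, and 289 genes (2.32%) and 3 of 40 members had an unadjusted p under 0.05. Zona glomerulosa-like nuclei had the most calls, 40 of 12262 genes (0.326%), with 0 of 40 members called and 1 member against 1330 genes (10.8%) under an unadjusted p of 0.05. In macrophage-like nuclei 0.0695% of genes and 0 of 30 members were called, and 5.12% of genes and 2 members had an unadjusted p under 0.05. The percentages called in the remaining classes were 0.00949% in endothelial-like, 0.0193% in capsule or fibroblast-like, 0.253% in adipocyte-like, 0.141% in cluster 16, 0.0363% in T or NK-like and 0.0% in cluster 12, pericyte or smooth muscle-like and Schwann or sustentacular-like nuclei. An unadjusted p under 0.05 was found in those classes for 3.37% of genes in endothelial-like, 6.37% in capsule or fibroblast-like, 7.48% in adipocyte-like, 4.57% in cluster 16, 5.3% in T or NK-like, 2.99% in cluster 12, 3.37% in pericyte or smooth muscle-like and 3.86% in Schwann or sustentacular-like nuclei, and for 1 member each in capsule or fibroblast-like and adipocyte-like nuclei. In the 2 shallowest classes, T or NK-like and Schwann or sustentacular-like nuclei, only 8 members had enough counts to be tested.

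The members' log2 folds stayed within 1 over all nuclei but not in every deep class. They ran from -0.64 to 1.2 in chromaffin-like, from -1.01 to 1.2 in zona fasciculata-like and from -0.68 to 0.47 in zona glomerulosa-like nuclei. In endothelial-like nuclei the range was -0.56 to 1.08. Over all nuclei the 41 log2 folds ran from -0.66 to 0.62 with a median of -0.04, against a median of 0.01 over all genes, and none passed 1. The median half-width of their 95% intervals was 0.43 over all nuclei and, by class, 0.63 (chromaffin-like), 0.69 (zona fasciculata-like) and 0.46 (zona glomerulosa-like). These intervals are not adjusted for the number of genes tested, so they are no limit of detection. Changes well above these sizes could also go uncalled at this depth and number of libraries. The median log2 fold of the members was 0.04 in chromaffin-like nuclei, where that of all genes was 0.02. In the cortex it was -0.15 (zona fasciculata-like; all genes -0.01) and -0.08 (zona glomerulosa-like; all genes 0.03).

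**Figure D4:**
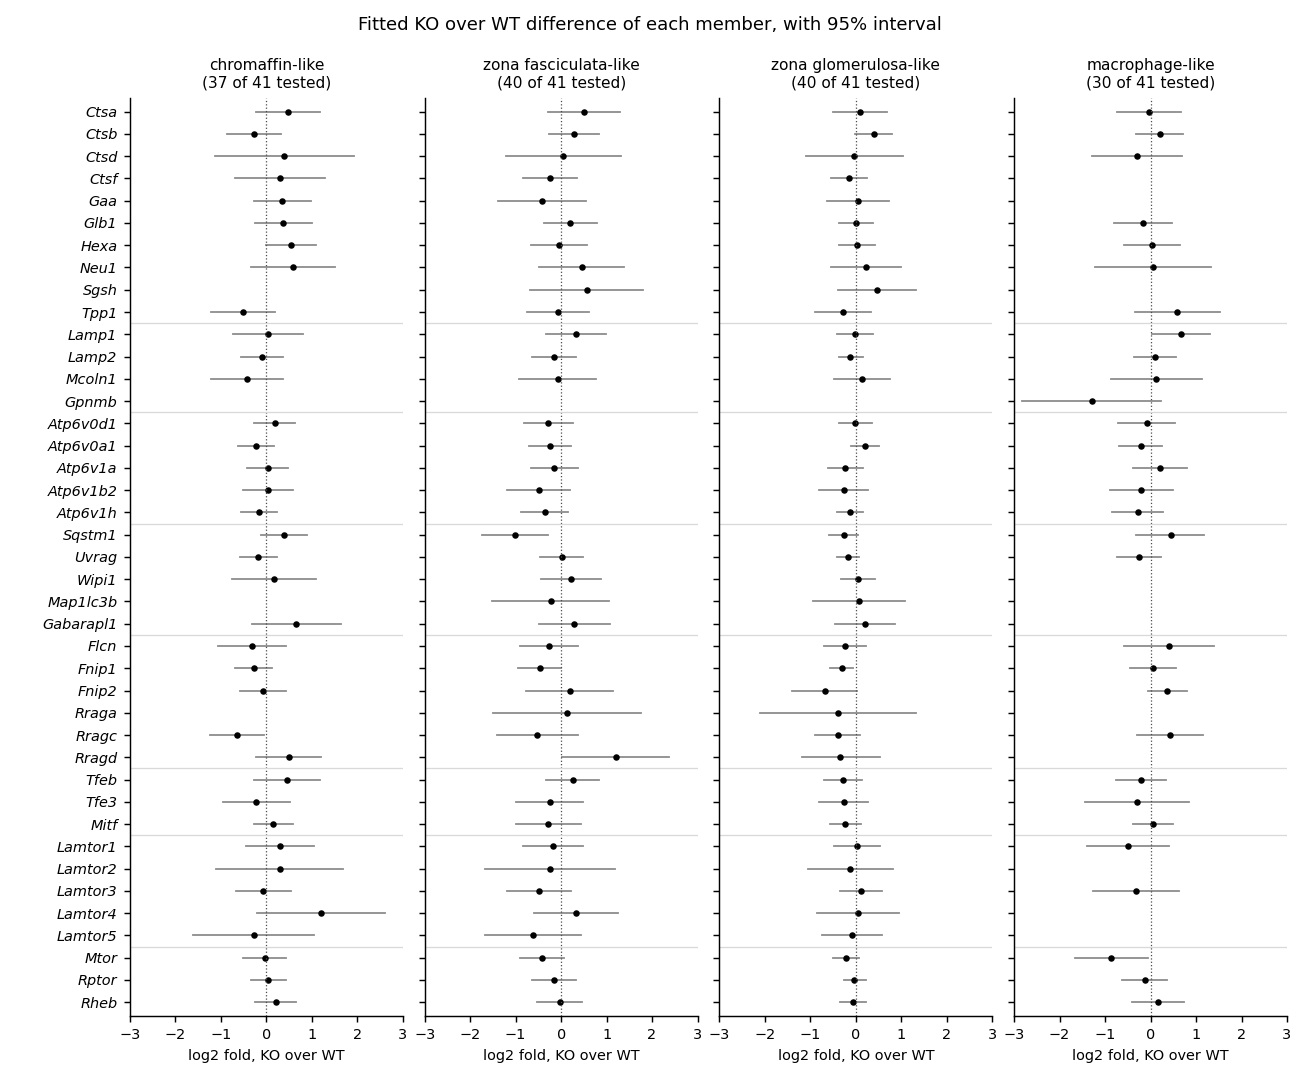
Log2 fold of KO over WT (horizontal axes) for each member with enough counts (rows, grouped by role) in 4 classes of nuclei; points are edgeR estimates and lines their 95% intervals. Most intervals include 0, and no member was called in any of the 4 classes.

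In chromaffin-like nuclei, the cell type of the human tumour, the member with the smallest p was Rragc, which encodes RagC (GRCm38 chr4:123917446-123936997, + strand). It had 30.3 and 23.5 CPM in KO and 42.1, 42.6 and 40.9 CPM in WT, so both KO libraries lay below all WT libraries, as they did for 8.05% of genes in this class. Its log2 fold was -0.64 ± 0.27 (SE; 95% interval -1.24 to -0.05), and its adjusted p by edgeR's quasi-likelihood test was 0.89. The partner gene Rragd had the values given above, with a log2 fold of 0.49 (95% interval -0.23 to 1.21), and its KO and WT libraries overlapped. Rraga had only 12 UMIs in these nuclei over the 5 libraries and was not tested. Flcn had 30.8 and 10.9 CPM in KO and 31.9, 17.3 and 20.4 CPM in WT chromaffin-like nuclei. Fnip1 had 375 and 309 CPM in KO and 369, 423 and 446 CPM in WT, and Fnip2 99.9 and 65.1 CPM in KO and 81.3, 93.2 and 85.4 CPM in WT. In all 3 genes the groups overlapped, with log2 folds of -0.32, -0.28 and -0.08. Over the Rag and folliculin group 4 of the 5 tested folds were negative in this class.

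The MiT/TFE factors did not differ detectably in chromaffin-like nuclei. Tfeb had 46.8 and 47.0 CPM in KO and 39.2, 39.9 and 19.2 CPM in WT, with a log2 fold of 0.46 (95% interval -0.27 to 1.18). Tfe3 had 29.1 and 16.3 CPM in KO and 28.3, 20 and 27.2 CPM in WT, and Mitf 128 and 157 CPM in KO and 137, 117 and 118 CPM in WT. Only for Tfeb did both KO libraries lie above all WT libraries, as for 13.2% of genes in the class. Of the members whose promoters hold the E-box shown above, Lamp1 had a log2 fold of 0.04, Ctsa 0.47, Mcoln1 -0.43, Atp6v0d1 0.18, Atp6v1a 0.03, Lamtor4 1.2, Rragc -0.64 and Rheb 0.20 in these nuclei, and none was called. The hydrolases as a group had a median log2 fold of 0.37, from -0.52 for Tpp1 to 0.58 for Neu1, with 7 of 9 tested folds above 0. Summed macrophage markers, of the class in which most hydrolases are highest, were also higher in KO in these nuclei, at 24.6 and 25.3 CPM in KO and 17.5, 18.6 and 13.6 CPM in WT, with none of the 10 at 0 in all libraries. So were T or NK markers, at 15.4 and 18.1 CPM in KO and 6.26, 7.99 and 8.05 CPM in WT, and adipocyte markers, at 66.8 and 85.0 CPM in KO and 59.3, 65.2 and 66.2 CPM in WT; their part in the hydrolase folds was not tested. The median over all genes was 0.02, and the gene with the smallest p of that group, Hexa, had 54.8 and 45.2 CPM in KO and 34.2, 33.3 and 34.0 CPM in WT, a log2 fold of 0.53 (95% interval -0.01 to 1.08).

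The Ragulator genes had few UMIs in chromaffin-like nuclei. Lamtor1, the membrane anchor of the complex, had 40.5 and 30.8 CPM in KO and 27.7, 18.6 and 38.4 CPM in WT, and Lamtor3 36.0 and 29.0 CPM in KO and 32.6, 34.6 and 35.9 CPM in WT. Lamtor2 had 6.85 and 5.43 CPM in KO and 4.61, 7.99 and 4.33 CPM in WT. Lamtor4 had 5.14 and 12.7 CPM in KO and 1.65, 3.99 and 8.05 CPM in WT, and Lamtor5 had 9.71 and 1.81 CPM in KO and 9.22, 5.32 and 4.95 CPM in WT. The groups overlapped for all 5, and the widest interval, that of Lamtor4, ran from -0.21 to 2.61. The mTORC1 core was measured more closely. Mtor had 76.0 and 77.8 CPM in KO and 88.6, 69.2 and 66.2 CPM in WT, with a log2 fold of -0.04 (95% interval -0.51 to 0.43). Rptor had 248 and 201 CPM in KO and 228, 181 and 217 CPM in WT, with a log2 fold of 0.04 (95% interval -0.35 to 0.43). Rheb had 107 and 166 CPM in KO and 102, 152 and 110 CPM in WT, with a log2 fold of 0.20 (95% interval -0.26 to 0.66).

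In zona fasciculata-like nuclei the member with the smallest p was Sqstm1 (GRCm38 chr11:50199366-50210827, - strand, partly overlapped by Mrnip on the opposite strand). It had 218 and 63.7 CPM in KO and 251, 194 and 220 CPM in WT, so KO replicate 1 lay within the WT range and only KO replicate 2 was low. The log2 fold was -1.01 ± 0.33 (SE) with an adjusted p of 1 by edgeR's test. Within each annotation, the log2 ratio was -0.21 for KO replicate 1 over WT replicate 1 and -1.70 for KO replicate 2 over the mean of WT replicates 2 and 3. Without WT replicate 3 the fit gave -0.79 and an adjusted p of 0.00509, and it was not called without any other library. The unassigned library, at 109 CPM, was low as well. In chromaffin-like nuclei Sqstm1 had 78.8 and 99.5 CPM in KO and 77.7, 57.2 and 57.6 CPM in WT. Subtracting the zona fasciculata-like KO effect from the chromaffin-like one gave 1.29 ± 0.37 on the log2 scale (SE), the smallest p among 39 members (0.00245 unadjusted, 0.876 adjusted, by edgeR with library as a block), while 0.0% of 12007 genes were called and 3.58% had an unadjusted p under 0.05. That difference was called without KO replicate 1, at 2.41 and an adjusted p of 0.0255, where KO replicate 2 alone stands for KO and is assumed to vary like the WT libraries, and without WT replicate 2, at 1.2 and an adjusted p of 0.0172. KO replicate 2 also had 82.1 CPM of erythroid markers in zona fasciculata-like nuclei, against 4.38 CPM in KO replicate 1 and 2.03 to 5.96 CPM in WT, and was the shallowest library; the part of either in the Sqstm1 value was not tested. Sqstm1 was also the member with the smallest p over all nuclei, at 134 and 62.2 CPM in KO and 143, 105 and 115 CPM in WT.

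All 5 V-ATPase members had negative folds in zona fasciculata-like nuclei, from -0.49 to -0.15, and in each of them both KO libraries lay below all WT libraries, as they did for 5.55% of genes. Atp6v1h, for example, had the 263 and 289 CPM in KO and 346, 290 and 396 CPM in WT given above. None had an unadjusted p under 0.05 there, and of the 14 other V-ATPase subunits tested in this class 6 folds were above 0 and 8 below. Summed zona fasciculata markers were likewise lower in KO, at 12900 and 13300 CPM against 16500, 13400 and 20000 CPM in WT, and their part in the V-ATPase values was not tested. Negative V-ATPase folds were not particular to this class. All 5 were negative in capsule or fibroblast-like nuclei too, from -0.31 to -0.14. Over all nuclei and in zona glomerulosa-like, endothelial-like, macrophage-like and adipocyte-like nuclei and cluster 12, 4 of 5 were negative. In cluster 16 and in pericyte or smooth muscle-like nuclei 3 of 5 were negative, while in chromaffin-like nuclei 3 of the 5 were above 0.

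Fnip1 and Rragd were the other members with an unadjusted p under 0.05 in zona fasciculata-like nuclei. Fnip1 had 149 and 122 CPM in KO and 201, 168 and 159 CPM in WT, a log2 fold of -0.47, with both KO libraries below all WT libraries. Rragd had 7.24 and 6.48 CPM in KO and 2.69, 2.98 and 3.24 CPM in WT, a log2 fold of 1.2 (95% interval 0.02 to 2.38) at low counts; 11.1% of genes lay, like Rragd, higher in both KO libraries. In zona glomerulosa-like nuclei Fnip1 had the smallest p of the members, with 164 and 163 CPM in KO and 199, 195 and 210 CPM in WT. The 2 KO libraries again lay below all WT libraries, as for 10.9% of genes in this class, with a log2 fold of -0.31 ± 0.11 (SE) and an adjusted p of 0.359 by edgeR's test. The KO libraries were lower within both annotations, by log2 ratios of -0.28 and -0.32. All 6 Rag and folliculin folds were negative in this class, from -0.68 to -0.24, against a median of 0.03 over all genes. So were all 3 MiT/TFE and all 3 mTORC1 core folds. The other groups were mixed, with 7 of 10 hydrolase, 3 of 5 Ragulator and 3 of 5 autophagy folds above 0. Of the lysosomal membrane folds 1 of 3 tested was above 0, and of the V-ATPase folds 1 of 5. Of the 40 members tested in this class 15 had a fold above 0, as had 6502 of all 12262 genes tested. Summed chromaffin markers in these zona glomerulosa-like nuclei were higher in KO, at 135 and 175 CPM in KO and 86.0, 126 and 56.4 CPM in WT. Capsule or fibroblast markers (85.9 and 85.6 CPM in KO, 56.8, 50 and 65.3 CPM in WT), T or NK markers (373 and 395 CPM in KO, 310, 291 and 290 CPM in WT) and adipocyte markers (105 and 114 CPM in KO, 58.1, 93.8 and 67.6 CPM in WT) were higher in KO as well, and the part of these markers in the folds was not tested. The T or NK sum was far higher here than in the chromaffin-like nuclei of the same libraries. Which listed genes carry it, and whether cortical nuclei express them themselves, was not tested. In macrophage-like nuclei, where Fnip2 is high, Fnip1 did not separate the groups, at 349 and 482 CPM in KO and 401, 307 and 489 CPM in WT.

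In macrophage-like nuclei, the class in which most members had their highest mean, Mtor had the smallest p of the members. It had 57.5 and 37.1 CPM in KO and 97.2, 113 and 67.8 CPM in WT, a log2 fold of -0.86 ± 0.38 (SE) with an adjusted p of 0.931 by edgeR's test. Lamp1 had the higher values in KO given above, with a log2 fold of 0.68 (95% interval 0.04 to 1.31) and the same adjusted p. In both genes the KO libraries lay outside the WT range, as they did above it for 9.12% and below it for 11.3% of genes. In the same nuclei dendritic markers summed to 858 and 630 CPM in KO and 1110, 1080 and 1180 CPM in WT. Adipocyte markers summed to 275 and 326 CPM in KO and 339, 363 and 440 CPM in WT, and chromaffin markers to 200 and 252 CPM in KO and 127, 156 and 86.1 CPM in WT. The first 2 lists were lower and the third higher in both KO libraries, and the part of other cells' RNA in the Mtor and Lamp1 values was not tested.

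The smallest member p in each remaining class missed the threshold as well. Mcoln1 in adipocyte-like nuclei had 30 and 37.4 CPM in KO and 10.3, 15.2 and 7.7 CPM in WT, a log2 fold of 1.68 (95% interval 0.13 to 3.23) from few UMIs. Gabarapl1 in capsule or fibroblast-like nuclei had 20.6 and 22.1 CPM in KO and 12.8, 6.73 and 11.7 CPM in WT. Sgsh, a sulfamidase, had 10.8 and 12.3 CPM in KO and 3.54, 9.49 and 8.79 CPM in WT endothelial-like nuclei. Both KO libraries lay above all WT libraries in these 3 genes, as for 11.1%, 10.4% and 10.5% of the genes tested in the 3 classes. The capsule or fibroblast-like class joins several clusters. Cluster 7, with Prdm6 and Esr2 among its leading genes, held 139 of 318 and 390 of 604 of its nuclei in KO. In WT it held 98 of 301, 185 of 376 and 279 of 568, and the part of this mix in the Gabarapl1 values was not tested. Atp6v1a in pericyte or smooth muscle-like nuclei had 37.6 and 10.9 CPM in KO and 53.9, 74.8 and 42.2 CPM in WT. Atp6v1h in cluster 12 had 217 and 289 CPM in KO and 321, 309 and 393 CPM in WT. Mitf in T or NK-like nuclei had 20.4 and 37.3 CPM in KO and 69.0, 126 and 140 CPM in WT. For Atp6v1a, Atp6v1h and Mitf both KO libraries lay below all WT libraries, as for 9.98%, 8.33% and 11.0% of genes. In T or NK-like nuclei the summed zona fasciculata markers moved with Mitf, at 1310 and 1830 CPM in KO and 2560, 5170 and 2690 CPM in WT. The zona glomerulosa, X-zone and capsule or fibroblast sums were likewise lower in both KO libraries, and the part of such RNA in the Mitf value was not tested. Fnip1 in Schwann or sustentacular-like nuclei had 321 and 435 CPM in KO and 223, 136 and 315 CPM in WT, so both KO libraries lay above all WT libraries, as for 8.66% of genes. Rheb in cluster 16 had 116 and 106 CPM in KO and 84.5, 121 and 97.8 CPM in WT, and these groups overlapped.

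Gm42418, a transcript that overlaps the ribosomal RNA repeat and stands here for RNA composition, was higher in both KO libraries than in all WT libraries in each of the 12 classes. Over all nuclei it had 15300 and 12500 CPM in KO and 6740, 7740 and 3820 CPM in WT, with 3230 CPM in the unassigned library. Its part in the members' values was not tested.

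**Figure D5:**
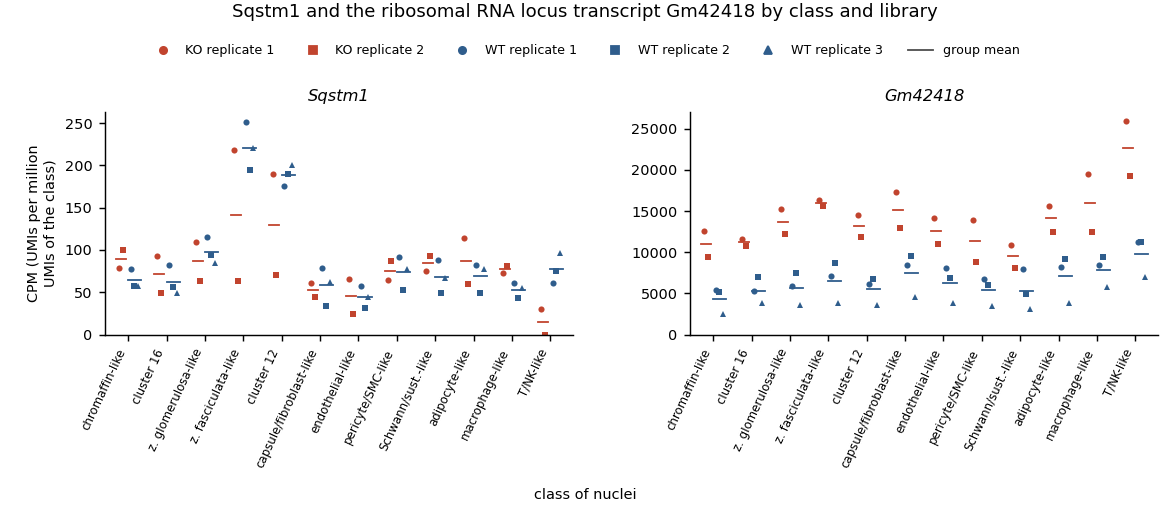
CPM (vertical axes, from 0) of Sqstm1 and Gm42418 in 12 classes of nuclei (horizontal axes); points are libraries, KO in red left of WT in blue, and short lines are group means. KO replicate 2 is low for Sqstm1 in zona fasciculata-like nuclei and cluster 12 at 63.7 and 70.7 CPM, while KO replicate 1 is not; for Gm42418 both KO libraries lie above the WT libraries in all 12 classes.

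Of the 123 other pathway genes, 104 were tested in chromaffin-like nuclei and 116 in zona fasciculata-like nuclei. None was called there by edgeR or DESeq2, and 7 and 2 had an unadjusted p under 0.05. In zona glomerulosa-like nuclei 1 of 115 tested was called by either tool, and over all nuclei 0 of 122 by edgeR and 1 by DESeq2. The gene with the smallest p was Manba, which encodes a beta-mannosidase, in adipocyte-like nuclei, with a log2 fold of -2.31. In macrophage-like nuclei it was the protease gene Lgmn, at 0.61, and in T or NK-like nuclei the autophagy gene Atg7, at 1.40. Rps6kb1, which encodes the mTORC1 substrate S6 kinase, had the smallest p in pericyte or smooth muscle-like nuclei, at -0.74, and in Schwann or sustentacular-like nuclei, at -1.12. None of these was called by edgeR in those classes.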

How the data were processed

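Single-nucleus RNA was measured in 6 libraries, 1 per pair of adrenal glands. The deposited files hold raw UMI counts per gene and barcode from Cell Ranger, per the file headers version 4.0.0 for KO replicate 1 and WT replicate 1 and 3.1.0 for the others, with 30406 genes in common; the lowest barcode total was 500 to 511 UMIs, so barcodes were filtered before deposit. From these counts, barcodes with under 300 genes or at least 5% mitochondrial UMIs (48) and 641 doublet calls (Scrublet scores, 0.8% per 1000 barcodes) were left out. Nuclei were clustered with scanpy 1.11.5 (2000 variable genes without the pathway genes, 30 components aligned over libraries, 20 neighbours, resolution 0.8) and named where at least 3 markers of 1 of 19 lists passed a log2 fold of 1 and a 10% share of nuclei. Counts were summed per library and class. edgeR 4.0.16 (R 4.3.3) tested KO against WT over all genes with annotation as a covariate and Benjamini-Hochberg adjustment; DESeq2 1.42.0 was an alternative. The fits were first run on simulated counts for all nuclei, chromaffin-like and zona fasciculata-like nuclei. Those counts had the same spread for every gene and no annotation effect, a simpler setting than these data. The interaction fit had library as a block. The replicates are separate pairs of glands, numbered by accession order.

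The members and the lists were chosen with earlier results of these data known. Named genes were any called member (there was none), the member with the smallest p in each class, the members highest in 1 class in every library, and the kinase, Rag, Ragulator and MiT/TFE members in chromaffin-like nuclei; of the other pathway genes, those called or with the smallest p in a class, of which 1 gene is not reported here. Sqstm1 in chromaffin-like nuclei, the annotation split and the class patterns of other members were chosen after their values were seen.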

Additional observations from a re-analysis of the deposited data

How the results depend on the processing

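Most results kept their direction and their side of the threshold under the alternatives tried (DESeq2, its size factors in edgeR, no filter on low counts, no annotation term, other clusterings, doublets kept, only nuclei with at least 1000 genes, the contradictory library counted in either group, cluster 16 joined to chromaffin-like nuclei, which was chosen after seeing the data, and each library left out). Of the values for single genes, 462 stayed, 22 reversed and 3 became significant. The number of members called in zona fasciculata-like nuclei was 0 to 1 over the fits with 1 library left out (1, Sqstm1, without WT replicate 3). The number whose KO effect differed between chromaffin-like and zona fasciculata-like nuclei was likewise 0 to 1 (1 without KO replicate 1 or WT replicate 2). With nuclei of at least 1000 genes, 1 member, Gpnmb, passed a log2 fold of 1 over all nuclei (-1.16, adjusted p 0.862). In zona glomerulosa-like nuclei the number of genes called, 40, was 0 without the annotation term and with the contradictory library in either group, 14 at resolution 1.2, 259 without a filter and 15 to 324 with 1 library left out. With 1 library left out it was 0 to 60 in zona fasciculata-like nuclei (0 with all 5) and 0 to 81 in macrophage-like nuclei (5 with all 5).

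The cause of the reversals was not tested. In chromaffin-like nuclei, with the contradictory library as KO, Flcn was 0.01, Fnip1 0.09, Fnip2 0.11, Tfe3 0.04 and Mtor 0.08; with it as WT, Rptor was -0.01. With doublets kept, Lamtor3 was 0.05 and Mtor 0.03, with cluster 16 joined Lamtor3 was 0.06, and without a filter Rptor was -0.01. Over the fits with 1 library left out, Fnip2 ran from -0.48 to 0.24, Rragd from -0.14 to 1.17, Mitf from -0.15 to 0.41, Lamtor3 from -0.31 to 0.09, Lamtor5 from -1.48 to 0.02, Mtor from -0.28 to 0.19, Rptor from -0.02 to 0.11 and Sqstm1 from -0.04 to 0.78; the end opposite to the full fit came without KO replicate 2, except for Mtor and Rptor. In cluster 16 Rheb ran from -0.02 to 0.46.

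No paired analysis was possible because the replicate numbers only follow accession order. With 2 KO libraries, 1 of them the shallowest library, low genes such as the Ragulator subunits could not be measured closely; intervals cover the spread between these libraries only.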

Other observations

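The library whose title and genotype field disagree lay within the range of the 5 KO and WT libraries for 24 of the 41 members over all nuclei, below it for 13 and above it for 4. In chromaffin-like nuclei 27 members were within, 6 below and 8 above that range, and in zona fasciculata-like nuclei 24 were within, 15 below and 2 above. In macrophage-like nuclei 28 were within, 10 below and 3 above.

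The classes too small to be compared had few UMIs and are given as pooled levels of 6 libraries. Mitf had 59.0 CPM in B or plasma-like, 73.4 CPM in hepatocyte-like and 133 CPM in mesothelial-like nuclei. Uvrag had 713 CPM in B or plasma-like and 311 CPM in mesothelial-like nuclei. Fnip2 had 665 CPM in hepatocyte-like and 2.36 CPM in B or plasma-like nuclei, and 47 of the 51 hepatocyte-like nuclei came from KO replicate 1.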
